A study of Mus musculus with 18 samples.

Results

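The 10 genes described here are processed pseudogenes whose counts were close to 0 in wt cells and well above it in Hmga2 KO cells. They are Gm13370, Gm10240, Rpl15-ps2, Rps15a-ps8, Gm8420, Gm8885, Gm14292, Mrpl48-ps, Gm5806 and Gm6368, out of 45706 genes in the count table, of which 6196 are annotated as processed pseudogenes. They were selected on the measured counts: nearly silent in all 6 wt libraries and expressed in both KO clones at 24 h. Their difference from wt cells is therefore a description of how they were chosen and was not tested.

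RNA sequencing was carried out on mouse induced pluripotent stem cells (iPSCs) of 3 lines: wt cells from 1 clone, and 2 clones labelled as knock-out (KO) for the gene of the chromatin protein Hmga2, KO#1 and KO#2. Each line was sampled at 0 h, grown over inactivated fibroblast feeders with leukaemia inhibitory factor and 2i (the inhibitors PD0325901 and CHIR-99021), and at 24 h after plating on Geltrex with Activin A and bFGF, the medium used to induce epiblast-like cells (EpiLCs). There were 3 libraries in each of the 6 groups, labelled as biological replicates. Since each genotype is represented by 1 or 2 clones, the genotype and anything else that separates the wt clone from the KO clones cannot be told apart. This includes strain background, which is not given in the sources used here, and with it whether the clones carry the same pseudogene copies.

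A processed pseudogene arises when a messenger RNA is copied back into DNA and inserted elsewhere in the genome. It therefore resembles the spliced messenger RNA of its parent gene, with the exons joined and the introns gone, and it usually lacks the parent's promoter. Genes with abundant transcripts in the germline, above all those for ribosomal proteins, have left many such copies in mammalian genomes. A short read from a recent copy can be identical to a read from its parent, so the count of a pseudogene depends on the few bases at which the copies differ.

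Parent genes were found by aligning each pseudogene with the transcripts of protein-coding genes in GENCODE M21 (GRCm38). Gm13370 (ENSMUSG00000084383, chr2:24985984-24986466, plus strand) and Gm10240 (ENSMUSG00000068397, chr15:68309819-68310301, plus strand) are 483-nt copies of the coding sequence of Rpl21, a protein of the large ribosomal subunit. Both are identical to Rpl21 at 99.6% of positions and identical to each other throughout. They differ from Rpl21 by T336C and T432C, with the parent's base first and positions counted from the 5′ end of the pseudogene. The windows around these bases are shown because they are the places where a read can tell Gm13370 and Gm10240 from Rpl21, with the differing base in capitals.
Gm13370, positions 316 to 356: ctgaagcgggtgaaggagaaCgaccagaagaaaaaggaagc
Rpl21: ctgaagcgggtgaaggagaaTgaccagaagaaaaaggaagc
Gm13370, positions 412 to 452: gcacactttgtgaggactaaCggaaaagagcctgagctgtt
Rpl21: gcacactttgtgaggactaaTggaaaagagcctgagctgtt

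Rpl15-ps2 (ENSMUSG00000098915, chr9:72060937-72061549, plus strand), Gm8420 (ENSMUSG00000072324, chr1:51940664-51941261, minus strand) and Gm8885 (ENSMUSG00000101496, chr1:72087857-72088454, plus strand) are copies of Rpl15, another protein of the large ribosomal subunit. Their identity to Rpl15 was 98.7% for Rpl15-ps2, 96.6% for Gm8420 and 95.6% for Gm8885, which also lacks 13 nt of the parent. Rps15a-ps8 (ENSMUSG00000084403, chr4:53791070-53791456, minus strand) is a copy of Rps15a, a protein of the small ribosomal subunit, with 92.2% identity and 30 substitutions. Windows of Rpl15-ps2 and Rps15a-ps8 are shown as a near and a distant copy of a ribosomal protein gene, with the differing bases in capitals.
Rpl15-ps2, positions 300 to 340: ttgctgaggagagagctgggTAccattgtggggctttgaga
Rpl15: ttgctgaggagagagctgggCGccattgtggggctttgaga
Rps15a-ps8, positions 38 to 78: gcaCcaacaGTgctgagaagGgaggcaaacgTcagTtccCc
Rps15a: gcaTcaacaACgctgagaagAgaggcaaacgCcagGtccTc

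The other 4 are copies of genes with other functions. Gm14292 (ENSMUSG00000061897, chr2:179177425-179177880, plus strand) is a copy of the short coding sequence of Wtap, a subunit of the complex that writes N6-methyladenosine on RNA, with 99.3% identity. Mrpl48-ps (ENSMUSG00000078480, chr4:88599175-88599810, minus strand) is a copy of Mrpl48, a protein of the mitochondrial ribosome, with 98.1% identity. Gm5806 (ENSMUSG00000047347, chr15:82516311-82519278, plus strand), named Tdg-ps in GENCODE M21, is a 2968-nt copy of Tdg, which encodes thymine DNA glycosylase of base excision repair, with 98.7% identity. Gm6368 (ENSMUSG00000080775, chrX:141980175-141982321, plus strand) is a copy of Hsp90ab1, which encodes a cytosolic chaperone, with 90.8% identity and 28 nt missing. Windows of Gm14292 and Mrpl48-ps show how few bases separate these copies from their parents.
Gm14292, positions 229 to 269: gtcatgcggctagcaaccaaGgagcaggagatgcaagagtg
Wtap: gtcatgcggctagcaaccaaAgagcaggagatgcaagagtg
Mrpl48-ps, positions 373 to 413: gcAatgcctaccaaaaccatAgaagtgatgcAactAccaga
Mrpl48: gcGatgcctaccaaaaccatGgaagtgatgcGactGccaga

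All 10 are annotated with 1 exon and run across 2 to 9 exon junctions of their parents. How far a single read could tell each from other transcripts was measured with words of 75 bases, the length of one read. The measure was the share of its 75-base words that occur in no other annotated transcript. That share was 100% for Rps15a-ps8, 99.5% for Gm6368, 91.2% for Gm8420, 79.4% for Gm8885, 66.7% for Mrpl48-ps, 54.8% for Gm5806, 35.3% for Gm14292 and 28.9% for Rpl15-ps2. It was 0% for Gm13370 and Gm10240: 68.9% of their words lay also in Rpl21, and 65 other genes shared at least 1 of them. Counts of Gm13370 and Gm10240 are therefore uncertain, while Rps15a-ps8 shared no 75-base word with any other annotated gene. Words were matched exactly, so a read with an error or a variant is not covered by these shares. Reads were paired, and either read of a pair can hold a differing base, so the shares do not describe pairs.

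**Figure D1:**
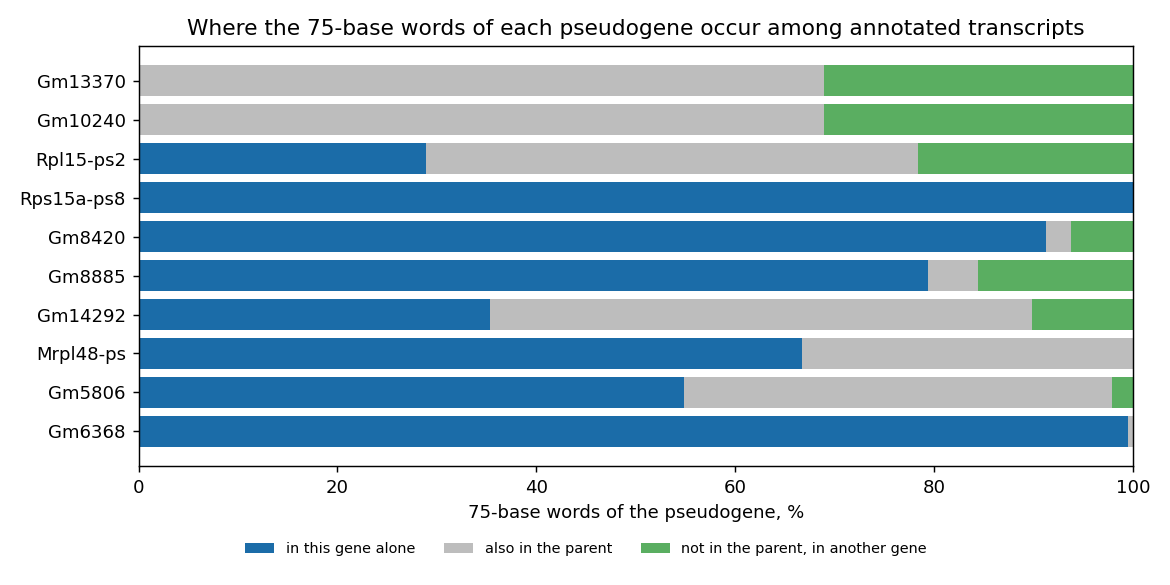
Share of the 75-base words of each pseudogene (horizontal axis, %) that occur in no other annotated transcript, that occur in the parent gene, or that occur in another gene but not in the parent. Rps15a-ps8 and Gm6368 consisted almost wholly of words of their own, and Gm13370 and Gm10240 had none.

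Total counts ranged from 3466436 to 23872837 per library, and 3 counts, the upper limit that a count of 0 allows, lay between 0.116 and 0.983 CPM (counts over the TMM-scaled library total, in parts per 1e6). Such limits cover counting error only. The lowest total was in replicate 1 of wt cells at 0 h, and KO#1 at 0 h had shallow libraries too, from 4531798 counts upward. The 6 most abundant genes, Gm26917 and 5 short non-coding RNA genes, held 30.7% to 50.0% of the counts of wt and KO#1 cells at 24 h and 10.2% to 12.1% of those of KO#2. TMM scaling adjusts for this difference in composition, and library sizes alone shifted the median of all genes by 1.07 on the log2 scale in KO#2 against KO#1 at 24 h. For that reason each pseudogene is also given as a percentage of its parent's counts, which needs no scaling between libraries. Hmga2 had a log2 fold change against wt cells of -1.71 in KO#1 and -1.90 in KO#2 at 0 h. At 24 h the values were -1.36 and -0.04. Hmga2 was called lower in KO#2 at 0 h (adjusted p = 0.023, edgeR) and not in the other comparisons with wt cells. That call was lost with library sizes alone (adjusted p = 0.0583, edgeR), without wt replicate 3 (0.0759) and without KO#2 replicate 1 (0.0699) or 2 (0.086). Without the filter on low counts Hmga2 was also called lower in KO#1 at 0 h (adjusted p = 0.000524, edgeR) and 24 h (0.0123), and at 0 h without KO#1 replicate 1 (0.0438). At 24 h the libraries of KO#2 had 10.4, 3.01 and 3.47 CPM of Hmga2, against 5.51 to 5.93 CPM in wt cells, so replicate 1 lay above and the other 2 below every wt library. Without replicate 1 the log2 fold change was -0.83 (adjusted p = 0.346, edgeR), and that replicate also had the highest fibroblast marker sum at 24 h (219 CPM). Because Hmga2 RNA at 24 h did not bear out the label in that replicate, these samples are called the KO#2-labelled libraries. Pou5f1, a defining gene of pluripotent cells, was between 525 and 1412 CPM on average in the 6 groups, and Fgf5, a marker of EpiLCs, had mean levels of at most 0.200 CPM at 0 h and of 8.23 to 14.1 CPM at 24 h. Of 4 further markers of this state, mean levels at 24 h in wt cells, KO#1 and the KO#2-labelled libraries were 145, 30.5 and 30.2 CPM for Pou3f1 and 795, 502 and 498 CPM for Dnmt3b. They were 85.5, 16.4 and 62.9 CPM for Lef1 and 42.9, 75.3 and 51.5 CPM for Otx2. The order of the groups differed between these markers, and the 24 h samples are named by their time. Of 8 fibroblast markers, 7 had counts in wt cells at 0 h, where Dcn was at 0, and 8 in each of the other groups. Their summed level was 110 to 390 CPM in wt cells, 183 to 514 CPM in KO#1 and 331 to 897 CPM in the KO#2-labelled libraries at 0 h, and 19.0 to 34.5, 38.7 to 51.8 and 70.9 to 219 CPM at 24 h. The part of feeder fibroblasts in the results below was not tested. In these bulk samples, more cells with a transcript and more of it per cell cannot be told apart.

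Gm13370 and Gm10240 were at 0 counts in every wt library. Gm13370 had 76.0, 106 and 52.2 CPM in the KO#2-labelled libraries at 0 h and 93.2, 83.1 and 76.3 CPM at 24 h. In KO#1 it had 166, 174 and 97.0 CPM at 24 h but 53.3, 0 and 9.98 CPM at 0 h, so that 1 KO library had none of it. Gm10240, the identical copy, followed it closely, with 165, 175 and 97.4 CPM in KO#1 at 24 h. The exception was replicate 2 of the KO#2-labelled libraries at 24 h, with 2150 counts for Gm13370 and 1325 for Gm10240. No fold change against wt cells is given for this pair, because neither has a 75-base word of its own and their 0 in wt cells depends on how reads were assigned.

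A further copy, Gm10163, shares all 407 of its 75-base words with Gm13370 and Gm10240, and it was not among the selected genes because wt libraries held 16 to 174 counts of it. In replicate 2 of KO#1 at 0 h, where both Gm13370 and Gm10240 had 0 counts, Gm10163 had 1556. In replicate 2 of KO#1 at 24 h the counts were 1703 and 1715 for Gm13370 and Gm10240 and 0 for Gm10163. Gm10163 thus made up from 0% to 100% of the summed counts of the 3 copies among KO#1 libraries, and from 0% to 43.1% among the KO#2-labelled libraries. The sum varied less: it was 37.2%, 38.4% and 38.4% of the Rpl21 counts in KO#1 at 24 h and 77.4%, 62.9% and 60.3% in the KO#2-labelled libraries. At 0 h it was 71.8%, 98.8% and 42.7% in KO#1 and 68.8%, 60.8% and 75.2% in the KO#2-labelled libraries. In the 6 wt libraries the sum lay between 0.689% and 1.25% of Rpl21, all of it on Gm10163. The counts show RNA assigned to the 3 copies in KO libraries. They do not show which of the 3 loci it came from, or whether it came from these loci at all.

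**Figure D2:**
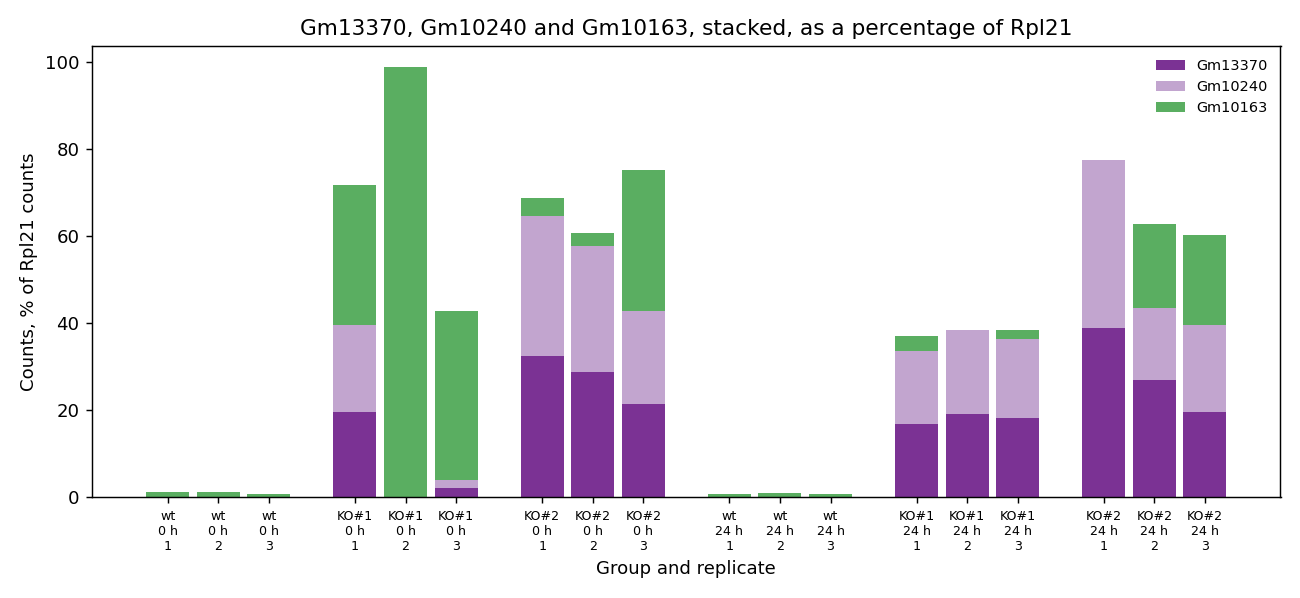
Counts of Gm13370, Gm10240 and Gm10163, stacked, as a percentage of the Rpl21 counts (vertical axis) in each of the 18 libraries. The sum was 37.2% to 98.8% in KO libraries and at most 1.25% in wt libraries, while the share of each copy moved between libraries of the same group.

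Rpl15-ps2 was the most abundant of the 3 copies of Rpl15 among the 10. It had 1 count in 1 of 3 wt libraries at each time point and 0 in the others. KO#1 had 40.8, 39.4 and 97.8 CPM of it at 0 h and 239, 155 and 168 CPM at 24 h. The KO#2-labelled libraries had 28.2, 52.1 and 31.0 CPM at 0 h and 29.1, 41.7 and 50.9 CPM at 24 h. No KO library came near the wt libraries, and at 24 h the lowest KO#1 library lay above the highest KO#2 library.
As a percentage of Rpl15, the KO libraries lay much closer together. Rpl15-ps2 had 9.22%, 7.79% and 9.25% of the Rpl15 counts in KO#1 at 0 h and 9.98%, 9.85% and 10.4% at 24 h. For the KO#2-labelled libraries the values were 9.20%, 9.17% and 8.10% at 0 h and 8.16%, 8.91% and 8.30% at 24 h. Over the 12 KO libraries the highest CPM was 8.47 times the lowest, while the highest percentage of Rpl15 was 1.33 times the lowest. Its share of the parent had the narrowest range of the 8 pseudogenes that had counts in each of these libraries.

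Gm8420 had at most 2 counts in a wt library. It had 17.2, 22.1 and 14.1 CPM in KO#1 at 0 h and 24.7, 14.0 and 18.7 CPM at 24 h. The KO#2-labelled libraries lay lower, with 2.43, 5.08 and 3.78 CPM at 0 h and 3.71, 3.56 and 3.43 CPM at 24 h. The 2 clones did not overlap at either time. As a percentage of Rpl15, Gm8420 had 1.03%, 0.890% and 1.15% in KO#1 and 1.04%, 0.759% and 0.559% in the KO#2-labelled libraries at 24 h, which overlapped. At 0 h the percentages were 3.89%, 4.37% and 1.33% in KO#1 and 0.795%, 0.893% and 0.988% in the KO#2-labelled libraries.

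Gm8885 was at 0 counts in the 6 wt libraries, and at 24 h it was the lowest of the 3 Rpl15 copies. It had 4.04, 3.07 and 2.55 CPM in KO#1 and 1.62, 1.00 and 1.82 CPM in the KO#2-labelled libraries at 24 h, on 26 to 55 counts. At 0 h it had 1.22, 1.84 and 1.77 CPM in the KO#2-labelled libraries. In KO#1 at 0 h, replicates 1 and 2 had 26.0 and 31.7 CPM, while replicate 3 had 1.75 CPM. Those 2 replicates stood apart from the other 10 KO libraries also as a percentage of Rpl15, at 5.89% and 6.26% against 0.157% to 0.463%. They are the shallow KO#1 libraries at 0 h, with 6358167 and 4531798 counts, and they also held the highest percentages of Gm8420 (3.89% and 4.37%). Depth and this difference move together, and its part was not tested.

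Rps15a-ps8 is the pseudogene whose reads are least likely to be mistaken for another gene. It had 0 counts in 4 wt libraries and 1 in each of the other 2. In KO#1 it had 8.60, 9.60 and 10.6 CPM at 0 h and 14.6, 17.2 and 9.02 CPM at 24 h. In the KO#2-labelled libraries it had 5.84, 12.3 and 6.47 CPM at 0 h and 5.95, 7.81 and 7.60 CPM at 24 h. All 12 KO libraries were above all wt libraries. At 24 h the summed counts were 512 in KO#1 against 2 in wt cells. It made up 1.70% to 3.79% of the Rps15a counts in KO libraries and at most 0.00993% in wt libraries.

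Gm6368, which is also nearly free of shared words, was low in KO cells and had up to 3 counts in wt libraries. It had 4.04, 4.59 and 3.73 CPM in KO#1 at 0 h and 3.75, 5.82 and 7.34 CPM at 24 h. The KO#2-labelled libraries had 2.15, 1.98 and 1.34 CPM at 0 h and 3.97, 2.28 and 2.13 CPM at 24 h. The summed counts at 24 h were 226 in KO#1 and 184 in the KO#2-labelled libraries, against 6 in wt cells. Hsp90ab1 is among the abundant genes of these cells, and Gm6368 had only 0.0911% to 0.236% of its counts in KO libraries.

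The copies of Wtap, Mrpl48 and Tdg were each present at a few CPM in every KO library. Gm14292 had 3.65, 4.59 and 4.96 CPM in KO#1 and 3.45, 4.40 and 4.55 CPM in the KO#2-labelled libraries at 0 h. At 24 h it had 4.04, 3.17 and 2.24 CPM in KO#1 and 3.50, 3.56 and 3.99 CPM in the KO#2-labelled libraries, so the clones overlapped at both times. In wt cells it had 1, 3 and 1 counts at 0 h, against 135 in all in KO#1. Its share of the Wtap counts lay between 4.30% and 4.55% in KO#1 and between 4.03% and 5.15% in the KO#2-labelled libraries at 24 h.
Mrpl48-ps had 0 counts in wt cells at 0 h and 1, 3 and 1 at 24 h. It had 1.82, 1.25 and 3.03 CPM in KO#1 at 0 h and 5.29, 4.80 and 3.67 CPM at 24 h. The KO#2-labelled libraries had 1.22, 1.98 and 1.34 CPM at 0 h and 2.77, 3.05 and 4.99 CPM at 24 h. Its parent is a gene of low abundance, and Mrpl48-ps reached 13.8% to 28.0% of the Mrpl48 counts in KO libraries.
Gm5806 had 1.82, 3.34 and 2.63 CPM in KO#1 at 0 h and 4.41, 6.54 and 5.54 CPM at 24 h. The KO#2-labelled libraries had 2.64, 2.78 and 2.63 CPM at 0 h and 5.12, 4.64 and 7.03 CPM at 24 h, against at most 1 count in a wt library. It made up 10.8% to 20.0% of the Tdg counts in KO libraries, with the 2 clones overlapping at both times.

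**Figure D3:**
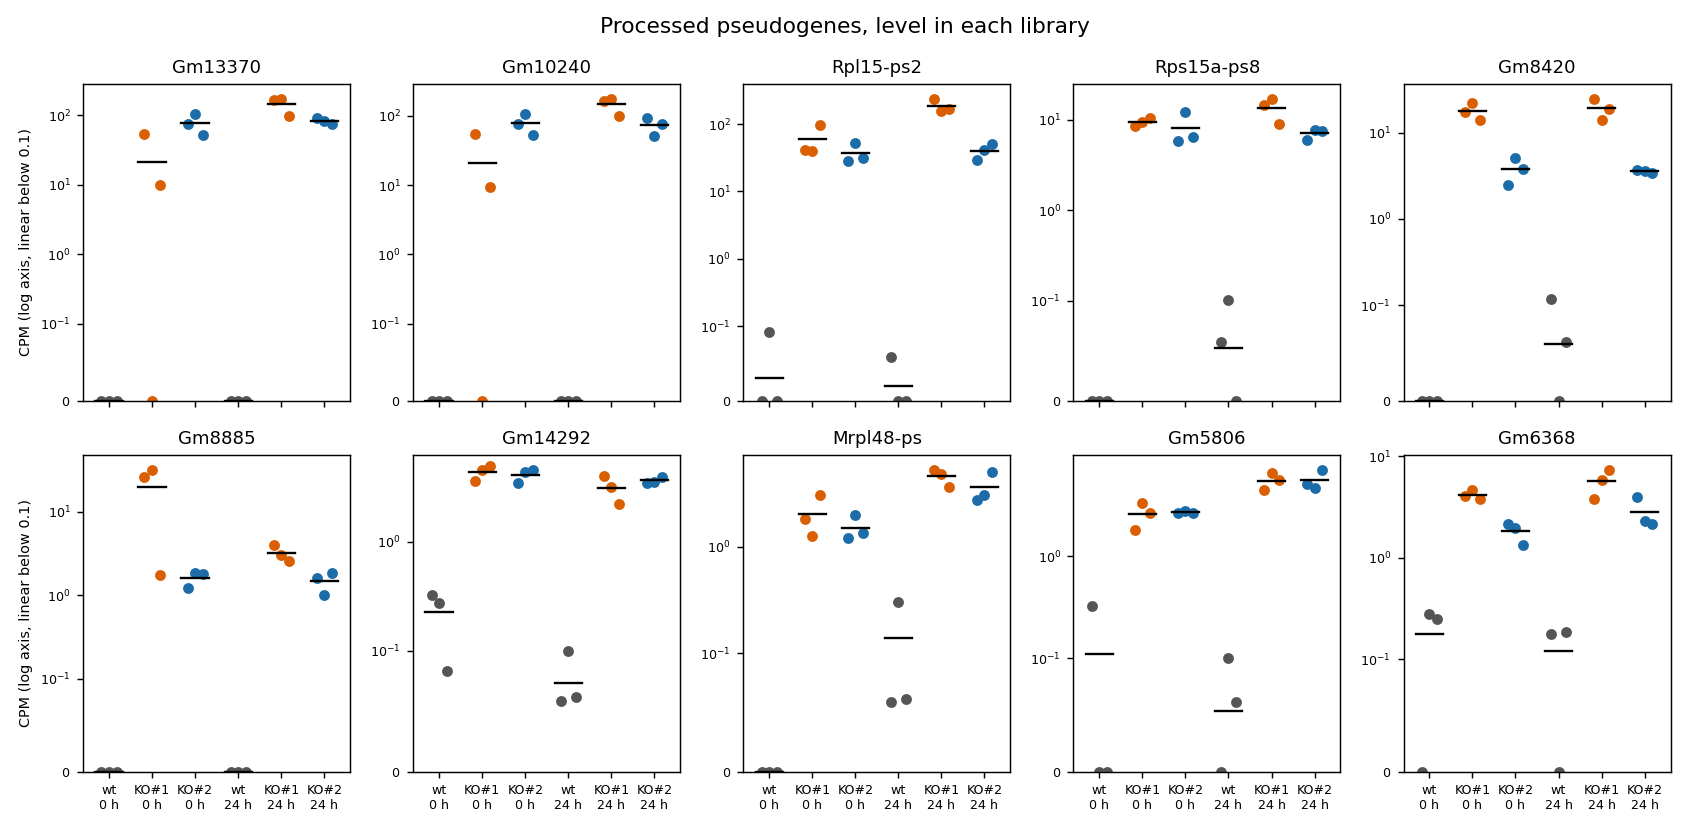
Level of each pseudogene (vertical axis, CPM after TMM scaling, logarithmic above 0.1 and linear below) in the 3 libraries of each group (points), with the group mean as a line. The pseudogenes were selected as nearly silent in wt libraries and expressed in both KO clones at 24 h, so that contrast is a description. For Gm13370 and Gm10240, replicate 2 of KO#1 at 0 h was at 0.

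Per kilobase of pseudogene, Rpl15-ps2 (306 CPM per kb ± 73.7), Gm10240 (302 ± 87.6) and Gm13370 (302 ± 87.6) were highest in KO#1 at 24 h (SD, n = 3 each), and the 3 did not differ beyond their spread. Rps15a-ps8 (35.1 ± 10.8) and Gm8420 (32.0 ± 8.96) came next, within their spread of each other. Mrpl48-ps (7.21 ± 1.31), Gm14292 (6.91 ± 1.98) and Gm8885 (5.38 ± 1.27) followed, and Gm6368 (2.63 ± 0.840) and Gm5806 (1.85 ± 0.359) were lowest. In the KO#2-labelled libraries at 24 h the order began with Gm13370 (174 ± 17.6) and Gm10240 (152 ± 43.4), with Rpl15-ps2 at 66.2 ± 17.9 below both. Gm13370 and Gm10240 are identical in sequence, so their separate levels in both clones depend on how reads were assigned.

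**Figure D4:**
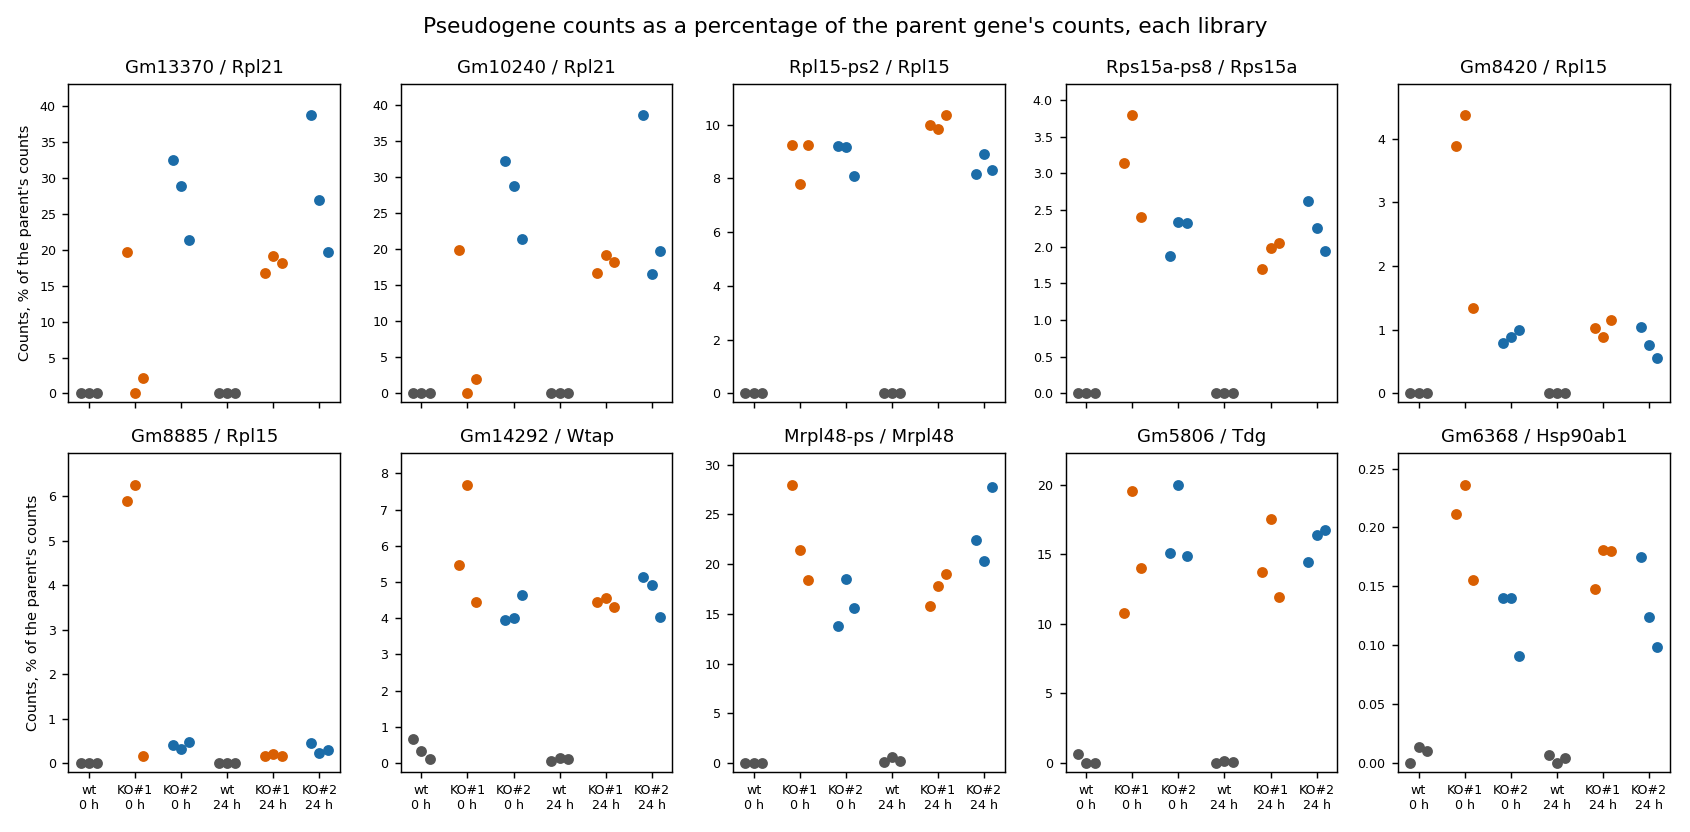
Counts of each pseudogene as a percentage of its parent's counts (vertical axis, linear, a different scale in each panel) in the 3 libraries of each group (points). Rpl15-ps2 stayed between 7.79% and 10.4% of Rpl15 in the 12 KO libraries, and Gm8885 stood at 5.89% and 6.26% in 2 libraries of KO#1 at 0 h.

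Across the 12 KO libraries, the highest value over the lowest was smaller as a percentage of the parent than as CPM for 7 of the 8 pseudogenes that had counts in each of them. It fell from 4.34 to 2.03 for Mrpl48-ps, from 3.86 to 1.86 for Gm5806, from 5.47 to 2.59 for Gm6368 and from 2.94 to 2.23 for Rps15a-ps8. It was 2.21 and 1.94 for Gm14292 and 10.1 and 7.82 for Gm8420. For Gm8885 it went the other way, from 31.6 to 39.9. A pseudogene and its parent can share reads, and this comparison is a description of the 12 libraries.

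The KO clones were compared with each other to ask whether the pseudogenes were at one level in both. At 0 h, a comparison that the selection did not use, 3 of the 10 were called and all 3 were lower in the KO#2-labelled libraries, while 26.4% of all 16619 genes tested were called either way. The called genes were Gm8420, with a log2 fold change of -2.23 (SE 0.33, adjusted p = 0.000477), Gm8885, with -3.60 (SE 0.72, adjusted p = 0.00327), and Gm6368, with -1.16 (SE 0.42, adjusted p = 0.0465), by the quasi-likelihood test of edgeR (Benjamini-Hochberg adjustment over all genes). The call of Gm8885 rested on the 2 shallow KO#1 libraries: without them it had a log2 fold change of -0.15 and an adjusted p of 0.87 in edgeR. The call of Gm6368 was lost whenever a library was left out. Gm13370 and Gm10240 had log2 fold changes of 1.88 each, with adjusted p of 0.108 and 0.114 in edgeR. Without replicate 1 of KO#1 the values were 3.78 and 3.86, but in the 2 remaining KO#1 libraries most counts of the 3 copies were on Gm10163. The part of read assignment in these values was not tested. The median over the 10 was -0.36, beside 0.02 over all genes tested.
At 24 h the selection had used the levels of both clones, though not their difference, and 35.4% of all genes were called. Of the pseudogenes, 3 were called, all lower in the KO#2-labelled libraries. Rpl15-ps2 had a log2 fold change of -2.21 (SE 0.36, adjusted p = 0.000241) and Gm8420 one of -2.42 (SE 0.33, adjusted p = 8.96e-05) in edgeR, and both were lower with library sizes alone too, by -1.13 and -1.35. Rps15a-ps8 had -0.93 (SE 0.34, adjusted p = 0.0436, edgeR), which turned to 0.22 with library sizes alone and was no longer called when any library but replicate 3 of KO#1 was left out. At both times 3 of 10 is near the share of all genes called either way and is not a result about the pseudogenes. The calls of pseudogenes were all lower, and the share of all genes called lower was smaller. Of all genes, 15.1% at 0 h and 19.3% at 24 h were called higher. With the 2 groups fitted alone, 7 of the 10 were called at 24 h, all lower in the KO#2-labelled libraries. In that fit 31.3% of all genes were called either way, and 15% of all genes were called higher.
Rpl15, the parent of Rpl15-ps2 and Gm8420, was itself lower in the KO#2-labelled libraries than in KO#1 at 24 h, with a log2 fold change of -1.96 (SE 0.39, adjusted p = 0.00108, edgeR). Rps15a had -1.16 (SE 0.38, adjusted p = 0.0245, edgeR) and Rpl21 -1.38 (SE 0.34, adjusted p = 0.00456, edgeR). Library sizes alone moved the median of all genes by 1.07 on the log2 scale in this comparison, so the size of these differences depends on the scaling. The other 4 parents were not called, with adjusted p from 0.0564 to 0.665 in edgeR.

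Whether the parents differed between KO and wt cells was tested in each clone at each time. At 0 h, 1 of 7 parents was called in KO#1, where 6.67% of all genes were called, and 2 of 7 in the KO#2-labelled libraries, where 38.1% were. The second of these was Hsp90ab1, with a log2 fold change of -0.71 (SE 0.26, adjusted p = 0.0371, edgeR), which was lost when any library but replicate 2 of wt cells was left out. Without replicate 1 of wt cells, Rpl15 was called in its place (-1.10, adjusted p = 0.0468, edgeR). At 24 h, 1 of 7 was called in KO#1 (9.86% of all genes) and 6 of 7 in the KO#2-labelled libraries (37.3% of all genes). All these calls were lower in KO cells. None of the 7 parents had the shape of its pseudogene, since each was expressed in wt cells at 8.18 CPM or more on average at 0 h.
Tdg was the parent called in all 4 comparisons. It had 53.4, 49.5 and 51.8 CPM in wt cells at 0 h, 16.9, 17.1 and 18.8 CPM in KO#1 and 17.4, 13.9 and 17.7 CPM in the KO#2-labelled libraries, with no overlap. Its log2 fold change at 0 h was -1.55 for KO#1 (SE 0.21, adjusted p = 0.000123) and -1.65 for the KO#2-labelled libraries (SE 0.21, adjusted p = 3.25e-05), from edgeR. At 24 h it was -0.97 (SE 0.20, adjusted p = 0.00426) and -1.10 (SE 0.20, adjusted p = 0.000515), from edgeR. With library sizes alone neither 24 h difference was called (adjusted p = 0.0679 in KO#1 and 0.815 in the other clone, edgeR).
The ribosomal protein parents were not called in KO#1 at either time. Rpl15 was at 2166 CPM for wt cells, 1864 CPM for KO#1 and 479 CPM for the KO#2-labelled libraries at 24 h, and its log2 fold change in the latter was -2.17 (SE 0.39, adjusted p = 0.000443, edgeR). Rpl21 had -1.83 (SE 0.34, adjusted p = 0.000556), Mrpl48 -1.38 (SE 0.33, adjusted p = 0.00355), Rps15a -1.35 (SE 0.38, adjusted p = 0.0109) and Hsp90ab1 -0.74 (SE 0.26, adjusted p = 0.0309) in the same edgeR comparison. With library sizes alone, Rpl15 was the only parent still called lower there (-1.18), Wtap was called higher (1.01 against -0.04), and Hsp90ab1 turned to 0.30.

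The copies of the same 7 parents that were not selected were examined next. The count table holds 153 of them, and 19 passed the filter on low counts. Genes with few counts in wt cells pass that filter only where KO cells have more, so the counts of calls among the 19 describe them and support nothing further, and no test is given for those named below with few counts in wt cells. In KO#1 at 24 h, 9 of the 19 were called higher than in wt cells and 1 lower, beside 6.25% of all genes called higher. Among the KO#2-labelled libraries, 11 were called higher and 1 lower, beside 21.3% of all genes called higher.
By mean level, the first 5 were Gm10020 (Rpl15), Gm10163 (Rpl21), Rps15a-ps7 (Rps15a), Gm9855 (Tdg) and Rps15a-ps6 (Rps15a). Gm10020 had 5.57, 1.38 and 0.834 CPM in wt cells at 0 h and 1.82, 0 and 1.05 CPM at 24 h. In KO#1 it had 404, 263 and 280 CPM at 24 h, and in the KO#2-labelled libraries 84.2, 114 and 162 CPM. The KO libraries did not overlap the wt libraries. Gm10020 made up 16.7% to 22.5% of the Rpl15 counts in KO#1 and 21.2% to 26.3% in the KO#2-labelled libraries.
Gm9855, a copy of Tdg that shares 600 75-base words with Gm5806, had at most 5 counts in a wt library. It had 11.7, 15.7 and 9.74 CPM in KO#1 at 0 h and 16.7, 18.5 and 23.5 CPM at 24 h. The KO#2-labelled libraries had 9.50, 7.64 and 9.72 CPM at 0 h and 19.4, 15.8 and 24.0 CPM at 24 h. The 2 KO clones overlapped at 24 h, and no KO library came near the wt libraries.
Rps15a-ps7 reached 10.3% to 12.3% of the Rps15a counts in KO#1 and 12.1% to 15.3% in the KO#2-labelled libraries, against at most 0.407% in wt cells. Rps15a-ps6 reached 1.66% to 4.04% and 2.53% to 3.67%, against at most 0.166%. The copy called lower in both comparisons was Gm4294 (Rpl15), with 29.3, 8.21 and 14.1 CPM in wt cells at 24 h, so 1 wt library was well above the other 2. Gm4294 fell by 2.29 on the log2 scale in KO#1 (adjusted p = 0.0446) and by 1.96 in the KO#2-labelled libraries (adjusted p = 0.0305), from edgeR. Without wt replicate 1 the values were -1.65 (adjusted p = 0.241, edgeR) and -1.35 (0.169). The call in KO#1 was lost with the replicate block (adjusted p = 0.0571, edgeR) and without 5 of the 6 libraries, and that in KO#2 without 3 of the 6 and with library sizes alone (-0.99, adjusted p = 0.195, edgeR).

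Since reads can be assigned to a parent or to its copies, the parent and the copies in the table were also summed, as a description. For Tdg, the sum of the parent and 3 copies at 24 h was 75.9 ± 11.9 CPM for wt cells, 63.7 ± 11.1 for KO#1 and 60.5 ± 12.2 for the KO#2-labelled libraries (SD, n = 3 each), which overlap within their spread. Tdg alone was at 75.6 ± 12.0, 38.6 ± 7.13 and 35.2 ± 6.84 CPM in the same groups. The copies held 38.6% to 40.2% of the sum in KO#1 and 40.9% to 42.5% in the KO#2-labelled libraries, against at most 0.598% in wt cells. At 0 h the sum itself was lower in KO cells, with 51.7 ± 2.11 CPM for wt cells, 32.6 ± 3.07 for KO#1 and 28.0 ± 3.19 for the KO#2-labelled libraries.
For Rpl21 the sum at 24 h was 1121 ± 369 CPM in wt cells and 1122 ± 332 CPM in KO#1, and the copies held 27.4% to 28.1% of it in KO#1. In the KO#2-labelled libraries it was 528 ± 98.5 CPM, of which the copies held 38.8% to 45.0%. For Rpl15 the copies held 21.9% to 22.6% of the sum in KO#1 and 25.7% to 27.1% in the KO#2-labelled libraries, against 0.787% to 1.20% in wt cells. For Rps15a the corresponding shares were 15.2% to 16.8%, 17.5% to 18.9% and 0.332% to 0.710%. The shares differed between wt and KO libraries by more than they varied within either. The summed copies include the selected pseudogenes, so the selection fixed part of this difference.

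**Figure D5:**
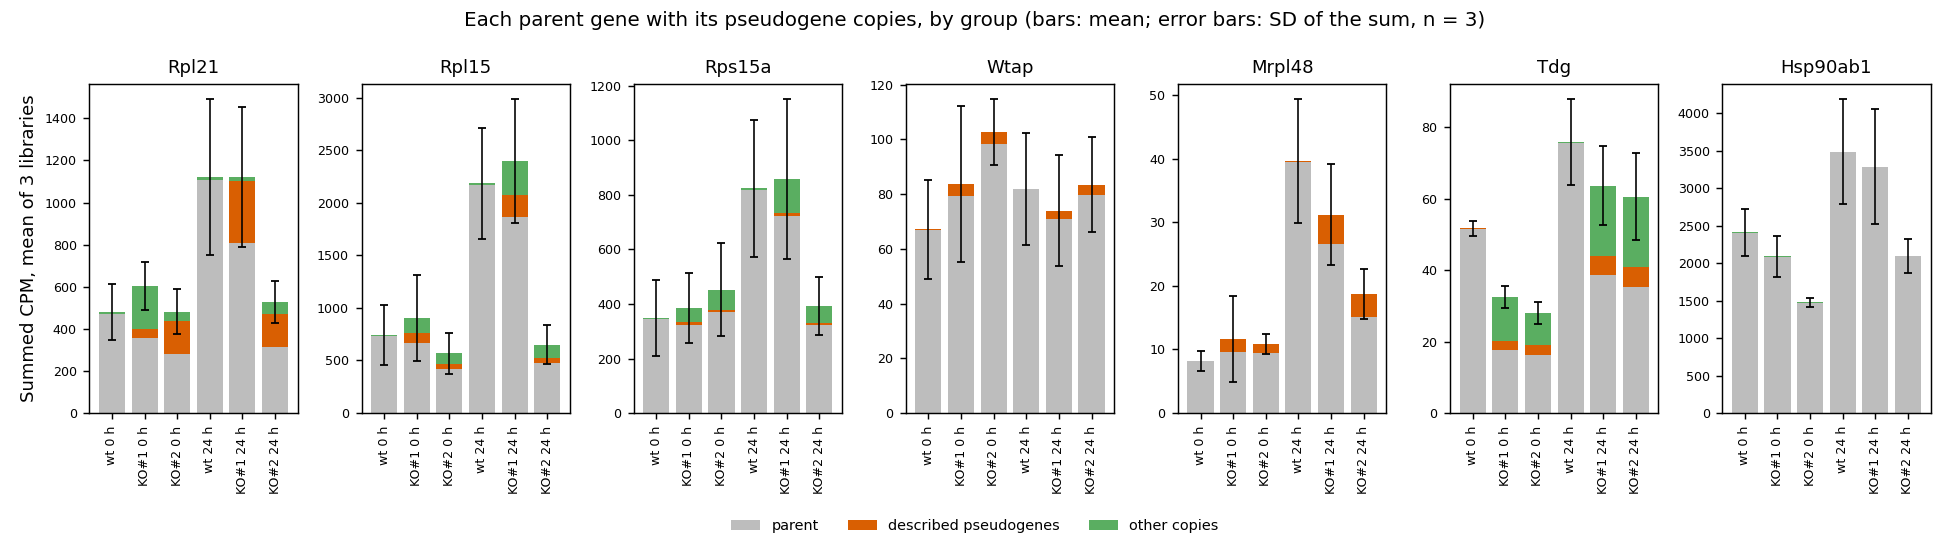
Level of each of the 7 parent genes (grey) with the pseudogenes described here (orange) and the other copies in the count table (green), stacked as mean CPM of 3 libraries per group; error bars are the SD of the sum. At 24 h the Tdg sum was 75.9 CPM for wt cells, 63.7 for KO#1 and 60.5 for the KO#2-labelled libraries.

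The places where the pseudogenes lie were examined through the genes around them. Gm13370 lies in an intron of Pnpla7 on the same strand, and Rpl15-ps2 in an intron of Tcf12 on the opposite strand. The other 8 overlap no protein-coding gene, at distances of 2358 bp (Rps15a-ps8 to Tal2) to 690059 bp (Gm14292 to Cdh26) from the nearest on either side. Of 22 overlapping or nearest protein-coding genes, 15 passed the filter. In KO#1 at 24 h, 2 of the 15 were called, Mreg higher and Tcf12 lower, where 9.86% of all genes were called. For KO#2, 4 of the 15 were called, Mreg and Zfp280d higher and Mrpl41 and Khdrbs3 lower, where 37.3% of all genes were called. Neither count is a result about the neighbours. Khdrbs3 had a log2 fold change of -0.70 (adjusted p = 0.0403, edgeR). Its call was lost without the filter (0.146), without wt replicate 2 (0.11) or 3 (0.138) and without KO#2 replicate 1 (0.16) or 3 (0.0735), and its sign turned with library sizes alone (0.35, adjusted p = 0.379, edgeR). Mrpl41 had -1.37 (adjusted p = 0.00425, edgeR), and -0.34 (0.438) with library sizes alone.
Tcf12, a transcription factor gene, went from 33.6 CPM in wt cells to 14.9 CPM in KO#1, a log2 fold change of -1.17 (SE 0.21, adjusted p = 0.00135, edgeR), while Rpl15-ps2 in its intron was among the highest of the 10. Whether the counting kept the strands of this pair apart is not given in the sources used here. Pnpla7, the host of Gm13370, had counts in every wt library, from 30 to 179. Mreg, the higher neighbour of Gm8885 at 70988 bp, rose from 28.0 CPM in wt cells to 54.2 CPM in KO#1 and 74.3 CPM in the KO#2-labelled libraries, with log2 fold changes of 0.96 (SE 0.25, adjusted p = 0.0202) and 1.41 (SE 0.26, adjusted p = 0.000437) in edgeR. The call of Mreg in KO#1 was lost without any wt library or KO#1 replicate 3 (adjusted p from 0.0535 to 0.0629, edgeR), with library sizes alone (0.121) and at the 0.01 threshold. Next to Mrpl48-ps, Ifna9 and Ifna12 were at 0 counts in all 18 libraries, as were Cyp2d9 beside Gm5806 and Gucy2f beside Gm6368. None of the 22 had the shape of the pseudogene beside it. With library sizes alone, which moved the median of all genes by 1.04 on the log2 scale there, 12 of the 15 were called higher in the KO#2-labelled libraries, where 58.2% of all genes were called higher.

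How common this shape was in the table was counted with fixed limits: at most 3 counts in each of the 6 wt libraries and at least 1 CPM in each of the 6 KO libraries at 24 h. Of 3443 processed pseudogenes with a count in any library, 11 met the limits: the 10 described here and Tma7-ps, whose lowest KO library was at 1.00 CPM, as was that of Gm8885. Of 18673 protein-coding genes with a count, 4 met them (Wdr64, Plb1, Camk4 and Grin2a), and of 6963 other genes, 1 did (Gm7029). With wt and KO cells exchanged, the limits were met by 1 processed pseudogene (Gm11585), 6 protein-coding genes and 3 others. Silent in wt cells and KO#1 and expressed in the KO#2-labelled libraries were 3 processed pseudogenes (Gm10480, Gm17538 and Gm12537), and 0 were silent in wt cells and in the KO#2-labelled libraries and expressed in KO#1. These counts are descriptions, since the 10 genes were chosen by much the same limits.
Just inside the limits were Gm14292, Mrpl48-ps and Gm6368, each with 3 counts in its highest wt library. Just outside were Gm11868 and Rps15a-ps3 with 4 counts, Gm9855 and Gm13328 with 5, and 2 pseudogenes with 6, among them Rps15a-ps4. Gm13534 and Gm5702 had 0 counts in wt cells but 0.808 and 0.608 CPM in their lowest KO libraries at 24 h.
By their pattern over the 18 libraries, the genes most like the mean log2 CPM of the 10 were Gm10260 (Pearson r = 0.984), Baiap2l1 (0.982), Gm11868 (0.980), Gm15772 (0.979) and Rps3a3 (0.977). These correlations are across libraries that fall into wt and KO groups and are given as a description. Gm10260 lay between 2.25 and 5.60 CPM in wt libraries and between 207 and 846 CPM in KO libraries. Gm11868, Gm15772 and Rps3a3 are annotated as processed pseudogenes as well. Gm10260 and Baiap2l1 are annotated as protein-coding, and Baiap2l1 had 0.701 to 2.29 CPM in wt and 71.6 to 230 CPM in KO libraries.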

How the data were processed

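The authors deposited a table of raw counts, whole numbers for 45706 genes in 18 libraries. According to the methods they made stranded total RNA libraries, sequenced paired ends, removed ribosomal sequences, aligned to GRCm38 with STAR and marked duplicates with Picard. Salmon and StringTie are named for quantification; how reads that fit several copies were assigned, the annotation release and the use of strand are not given in the sources used here. This bears on all the pseudogene counts.

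The 10 pseudogenes and the lists were chosen with earlier results of these data known. Counts were analysed with edgeR 4.0.16 in R 4.3.3: filterByExpr with a minimum count of 10 (16619 genes), TMM factors, 1 quasi-likelihood model of 6 groups, and Benjamini-Hochberg adjusted p under 0.05 as a call. P-values measure the spread between libraries of a clone. SE was derived from the fold change and its F statistic. The model was tested on simulated counts. Parents were the best match by BLASTN (E under 1e-20) among protein-coding transcripts of GENCODE M21, which holds 45143 of the 45706 gene identifiers; words of 75 bases were matched exactly. Named genes were the 10, their parents, the 5 highest other copies by mean CPM, overlapping and nearest protein-coding genes, the 5 genes closest in pattern, and Hmga2; others were named after their values were seen. No 2 libraries had identical counts. Libraries with the same replicate number deviated together in KO#1 and wt cells at 24 h (r from 0.223 to 0.587), but not in the other comparisons. Alternatives were DESeq2 1.42.0 (Wald test), DESeq2 size factors (RLE), library sizes alone, no filter, the compared groups alone, a replicate block, adjusted p under 0.01, other limits for the pattern, and leaving out libraries.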

Additional observations from a re-analysis of the deposited data

Results flagged for a closer look

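The genes below were flagged by edgeR's test of KO#2 against KO#1. Their estimates against the same wt cells had opposite signs in the clones. Copies of parent genes among them had few counts in wt cells. No test is given for these copies, and their flags support nothing further. For Zfp280d, Tcf12 and Mrpl41, none of the KO#1 estimates against wt cells was called (adjusted p from 0.404 to 0.951, edgeR). The signs in KO#1 are therefore not shown to differ from 0. At 0 h, Zfp280d, the gene next to Rpl15-ps2, was higher in the KO#2-labelled libraries than in KO#1 by 1.47 on the log2 scale (adjusted p = 0.00174, edgeR). Against wt cells it had 1.13 (adjusted p = 0.00543, edgeR) there and -0.34 (adjusted p = 0.556) in KO#1. Tcf12, whose intron holds Rpl15-ps2, was higher by 0.88 at 0 h (adjusted p = 0.00641, edgeR), with 0.54 (adjusted p = 0.0499) and -0.34 (adjusted p = 0.404) against wt cells. The 0.54 lay just under the threshold of 0.05 and was not called under 0.01. Mrpl41, near Gm13370, had -1.44 at 24 h (adjusted p = 0.00337, edgeR), with -1.37 (adjusted p = 0.00425) and 0.07 (adjusted p = 0.951) against wt cells. With library sizes alone, which moved the median of all genes by 1.07 and 1.04 on the log2 scale in these comparisons of KO#2, Mrpl41 had -0.33 against KO#1 (adjusted p = 0.46, edgeR) and -0.34 against wt cells (0.438), and neither was called. Rps15a-ps5, a copy of Rps15a, was higher by 1.91 at 24 h, with 1.65 in KO#2 and -0.25 in KO#1 against wt cells. At 24 h it had 28, 84 and 79 counts in the KO#2-labelled libraries. KO#1 had 11, 8 and 9 counts of it and wt cells 17, 15 and 3, so only the fitted values are given. RP23-447N11.3, a copy of Hsp90ab1, was higher by 1.89 at 0 h, with 0.97 in KO#2 and -0.91 in KO#1 against wt cells. At 0 h it had 54, 20 and 32 counts in the KO#2-labelled libraries. KO#1 had 2, 3 and 7 counts of it and wt cells 2, 4 and 15, so only the fitted values are given. Rpl21-ps12, a copy of Rpl21, had 7 to 14 counts in each of the KO#2-labelled libraries and at most 1 count in each of the other 12. Its fitted values of 3.51 at 0 h and 5.90 at 24 h depend on the prior count, since KO#1 had at most 1 count in all, and are neither a measured fold nor a bound. It passed the filter on low counts only through the KO#2-labelled libraries, so no test is given. The cause of these differences was not tested.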

How the results depend on the processing

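Calls of the 10 pseudogenes between the KO clones at 0 h stayed between 2 and 4 under every alternative, and at 24 h between 2 and 4 except with the compared groups alone (7, where 31.3% of all genes were called either way). With the replicate block they were 2 and 3; the pairing comes from the replicate numbers, and the block took the call of Gm6368 at 0 h. With 1 library left out they ranged from 2 to 4 at 0 h and from 2 to 3 at 24 h. For parents at 0 h, calls in the KO#2-labelled libraries fell from 2 to 1 with adjusted p under 0.01, without the filter and with the groups alone, rose to 3 with DESeq2, and ranged from 1 to 2 with a library left out (1 without wt replicate 3 or any KO#2 library; without wt replicate 1, Rpl15 replaced Hsp90ab1). At 24 h, library sizes alone gave 0 parents in KO#1 and 2 in the KO#2-labelled libraries, and with a library left out the counts were 1 and 4 to 6. The other copies called in the KO#2-labelled libraries rose to 20 without the filter, of 108 then tested. Neighbours called at 24 h fell to 1 of 2 in KO#1 and to 2 of 4 in the KO#2-labelled libraries with adjusted p under 0.01; library sizes alone gave 1 and 12. In KO#1 they were 3 without the filter, with the block, with the groups alone and with DESeq2. With a library left out they ranged from 1 to 2 (1 without any wt library or KO#1 replicate 3) and from 3 to 5. Library sizes alone also turned Rps15a-ps8 between the clones (0.22), and Wtap (1.01), Hsp90ab1 (0.30), Khdrbs3 (0.35), Hmga2 (1.01) and Tcf12 (0.95) in the KO#2-labelled libraries at 24 h. Pseudogenes with the pattern numbered 3 with 0 counts allowed in wt cells, 21 with 10 counts, 18 with 0.5 CPM, and 10 with library sizes alone or with Gm13370 and Gm10240 counted as 1. Chosen after seeing the data were this last count and the removal of both shallow KO#1 libraries. In the shallowest wt library, 3 counts were 13.6% of Mrpl48, close to the lowest share of Mrpl48-ps in a KO library (13.8%), so that its absence there is weakly bounded. Of the values of single pseudogenes, parents and the 5 named copies under all alternatives, 696 kept their direction and side of the threshold, 43 lost the call, 22 gained it and 3 reversed; the block took no other call of the pseudogenes.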
